A study of Homo sapiens with 4 samples.

Results

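The genes that license DNA for replication were examined in NUDUL1, a human line of diffuse large B cell lymphoma (DLBCL) of the germinal center type. The group held 10 of the 25066 genes listed and was taken by symbol. It comprised MCM2, MCM3, MCM4, MCM5, MCM6 and MCM7, the subunits of the replicative helicase, together with MCM10, CDC6, CDT1 and GMNN. All 10 were found and all 10 passed the filter on low values. The cells were a Cas9-engineered line, in which Cas9 is switched on by doxycycline, and had been transduced with Tbxa2r, a thromboxane receptor that couples to Gα13. Cells carrying a control sgRNA were compared with cells carrying an sgRNA against GNA13, which encodes Gα13. Both received 10 nM U46619, a stable thromboxane analog, for 24 h, and there were 2 libraries per genotype, from duplicate treatments. The engineered lines were derived from single-cell clones and 1 sgRNA was used per genotype, so p values measure the spread between duplicate cultures and not between clones or guides. No untreated cells were sequenced in this comparison.

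Licensing takes place before S phase. The origin recognition complex marks a replication origin, and CDC6 and CDT1 then load the ring of MCM2 to MCM7 around the DNA as an inactive double hexamer. Geminin, the product of GMNN, binds CDT1 and stops the ring from being loaded again once replication has begun. In S phase, the kinase CDC7 with its partner DBF4, and cyclin-dependent kinases, turn the loaded ring into a working helicase by adding CDC45 and the GINS complex, and MCM10 takes part in this step. Transcripts of most of these genes are known to rise in cycling cells under the E2F transcription factors, and germinal center B cells are among the fastest-dividing cells of the body.

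Libraries held from 29209544 to 31537955 mapped reads. The mRNA of the targeted gene was not lower under the GNA13-deficient label. On the log2 scale of normalized reads, GNA13 was at 12.46 and 12.45 under the control label and at 13.10 and 13.11 under the GNA13-deficient label, so its mRNA was higher where the label says it was disrupted, and all directions below rest on the labels. The mRNA level alone does not show whether the sgRNA disrupted the gene, and the Gα13 protein was not measured in these libraries. Of 6 B cell markers, all were present in every library, at log2 values from 10.21 to 14.33. Of germinal center markers, MME was at 13.99 to 14.08, while BCL6 was at 10.75 and 10.90 against 8.23 and 8.44. The 3 T cell markers listed (CD3D, CD3E and CD2) were at 0 in all libraries. Of the 7 myeloid, epithelial and fibroblast markers none exceeded 97 reads in any library; LYZ had 83 and 83 reads against 11 and 17, and EPCAM 37 and 46 against 88 and 97. The part of these markers in the results was not tested.

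E2F binding sites in the promoters of licensing genes have long been described, and the promoter sequences are shown for that reason. A window from 250 bases before to 50 bases after the annotated transcript start was read from GRCh37 for 9 of the 10 genes; that of MCM4 was not analysed here. The E2F motif was sought on both strands as TTTCCCGC, TTTGGCGC, TTTCGCGC or TTTGCCGC. At least 1 was found in 7 of the 9 windows, against 4.38% of 18922 windows of the same length over protein-coding genes. The match nearest to the transcript start is in capitals in the following 30 bases, each read 5′ to 3′ on the gene's own strand.
MCM2: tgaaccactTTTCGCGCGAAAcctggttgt
MCM3: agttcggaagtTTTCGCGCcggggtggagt
MCM5: cgcctcttgttTTTCCCGCgaaactcggcg
MCM6: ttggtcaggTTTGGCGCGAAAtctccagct
MCM7: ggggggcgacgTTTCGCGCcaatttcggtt
CDC6: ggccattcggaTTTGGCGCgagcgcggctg
CDT1: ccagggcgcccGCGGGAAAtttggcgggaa
These lie at chr3:127317247-127317276 (plus strand) for MCM2, chr6:52149526-52149555 (minus) for MCM3 and chr22:35796118-35796147 (plus) for MCM5. Those of MCM6 and MCM7 are at chr2:136634083-136634112 and chr7:99699011-99699040, both on the minus strand, and those of CDC6 and CDT1 at chr17:38444127-38444156 and chr16:88870151-88870180, both on the plus strand. In MCM2 and MCM6 the capitals hold a match on each strand, overlapping at its center. The windows of MCM10 and GMNN held none of these letters. A match is a description of the reference sequence, and binding was not measured.

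The CCAAT box, bound by NF-Y and also sought on both strands, was found in 6 of the 9 windows (MCM3, MCM5, MCM6, MCM7, MCM10 and CDC6), against 36.0% of all windows. The E-box CACGTG, which MYC can bind, was found in 3 (MCM2, MCM7 and GMNN), against 8.82%. In MCM7, an E2F match and a CCAAT box share 1 base. Of the 3 kinds of motif sought, the window of GMNN held only an E-box, inside the first bases of its transcript. Likewise, that of CDT1 held only an E2F match and that of MCM10 only CCAAT boxes. Other forms of these sites were not sought, and the part of any motif in the differences below was not tested.

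**Figure D1:**
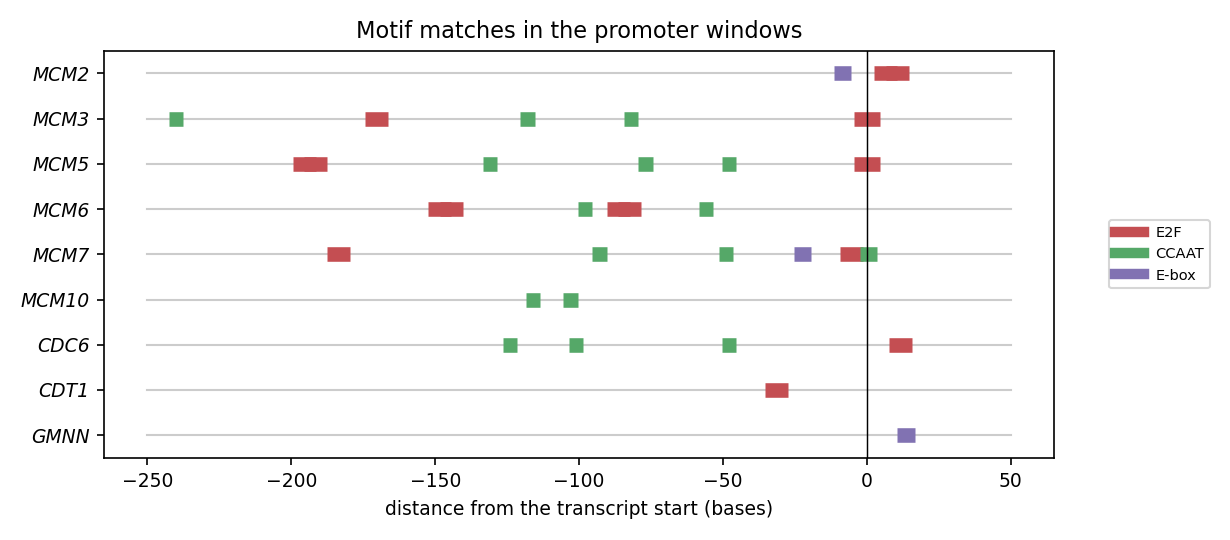
Positions of E2F, CCAAT and E-box matches along the promoter windows of 9 licensing genes, with the distance from the transcript start in bases on the x axis and 1 grey line per gene. E2F matches are seen in 7 of the 9 windows and none in those of MCM10 and GMNN.

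All 10 licensing genes were higher under the GNA13-deficient label. Log2 differences ran from 0.26 for GMNN to 0.85 for MCM2, which are 1.20-fold and 1.80-fold, with a median of 0.67 against -0.025 for all 16945 genes tested. Each gene had an adjusted p under 0.05 in limma, the rule by which a gene is called here, whereas 13.1% of all genes tested were called higher and 16.6% lower. Since the licensing genes are strongly expressed, their count may also be read against the 4997 genes with a mean at or above that of GMNN, the lowest of them, of which 25.4% were called higher. The genotypes did not overlap in any of the 10, and the same pattern in the same direction was found in 31.3% of all genes tested.

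**Figure D2:**
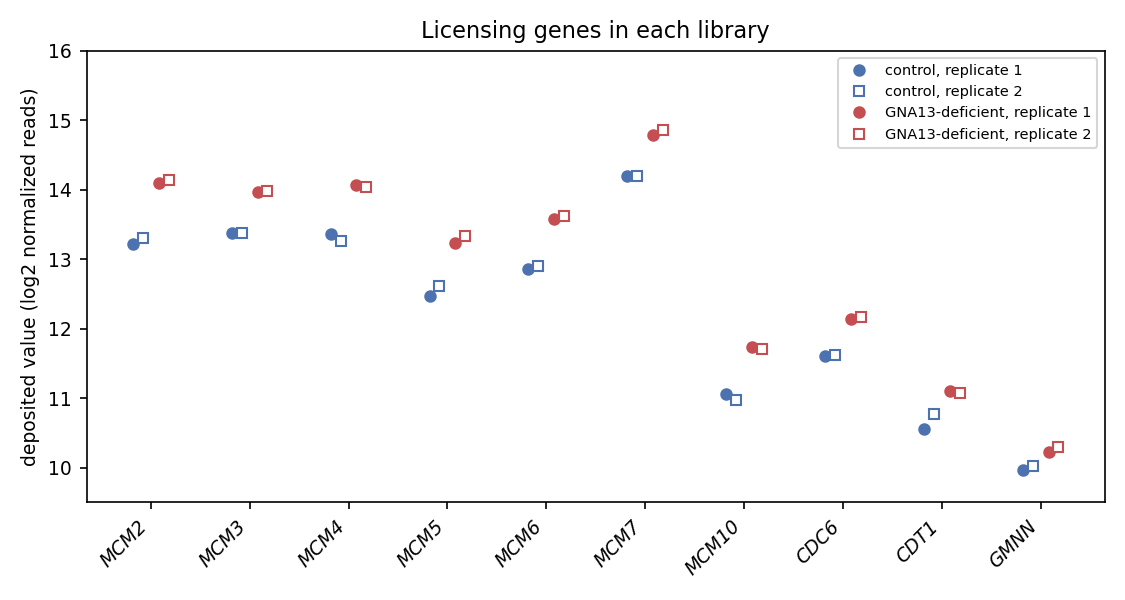
Deposited log2 normalized reads of the 10 licensing genes, with 1 point per library. The genotypes are apart in every gene, with the narrowest gap, 0.20, at GMNN and the widest, 0.80, at MCM2.

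The 6 helicase subunits differed by 0.60 to 0.85. MCM2, a subunit that also binds histones, was at log2 13.23 and 13.31 under the control label and at 14.10 and 14.13 under the GNA13-deficient label. Duplicates were thus within 0.082 of each other and the genotypes 0.80 apart at their nearest, for a difference of 0.85 (standard error 0.063, adjusted p = 0.00199, limma). MCM2 had the largest rise of the 10 genes, and 6.68% of all genes tested rose by more. A long noncoding RNA on the opposite strand covers 32.4% of the MCM2 transcript, and no source used here gives the strand setting of the counting. Only the exons of 1 reference transcript per gene (MANE Select) were searched. Within these, no other licensing gene shared exon bases with another annotated gene.

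MCM5 and MCM4 followed. MCM5, which together with MCM2 forms the gate of the ring, was at 12.47 and 12.61 against 13.24 and 13.34, a difference of 0.74 (standard error 0.075, adjusted p = 0.00362, limma). Its control duplicates were 0.14 apart, less than the gap of 0.62 between genotypes. MCM4 was at 13.37 and 13.26 against 14.07 and 14.04, a difference of 0.74 (standard error 0.066, adjusted p = 0.00282, limma). MCM4, MCM6 and MCM7 form the part of the ring with helicase activity of its own.

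MCM6 and MCM7 complete that part. MCM6 was at 12.86 and 12.90 against 13.58 and 13.62, with a difference of 0.72 (standard error 0.056, adjusted p = 0.00214, limma). MCM7, the most abundant transcript of the group, was at 14.20 and 14.19 against 14.79 and 14.87, with a difference of 0.63 (standard error 0.070, adjusted p = 0.00449, limma). Its control duplicates were nearly equal, and the genotypes were 0.59 apart at their nearest. MCM3, whose tail contacts the origin complex with CDC6, had the same value of 13.38 in both control libraries, and was at 13.97 and 13.99 under the GNA13-deficient label. Its difference of 0.60 (standard error 0.056, adjusted p = 0.00309, limma) was the smallest among the 6 subunits. The 95% intervals of the subunits, from 0.45 to 0.74 for MCM3 and from 0.69 to 1.02 for MCM2, overlapped one another throughout.

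MCM10, which is not a ring subunit despite its name and acts when the helicase is activated, differed by a similar amount. It was at 11.06 and 10.98 against 11.73 and 11.71, a difference of 0.71 (standard error 0.056, adjusted p = 0.00218, limma), or 1.63-fold with a 95% interval from 1.48 to 1.80.

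The loading factors CDC6 and CDT1 differed by 0.54 and 0.43 as deposited, below the range of the subunits, but under quantile normalization CDC6 (0.48) lay above MCM3 (0.43). CDC6, the ATPase that recruits the ring to the origin, was at 11.61 and 11.62 against 12.15 and 12.17. The difference was 0.54 (standard error 0.049, adjusted p = 0.00288, limma). CDT1, the partner that escorts the ring and is destroyed when S phase starts, was at 10.55 and 10.77 against 11.10 and 11.08. The control duplicates of CDT1 were 0.21 apart, the widest of the group, and the nearest libraries of the 2 genotypes 0.31 apart, so that its difference of 0.43 (standard error 0.085) had the weakest support of the loading factors (adjusted p = 0.0213, limma). CDT1 no longer passed without the filter on low values (adjusted p = 0.135) or without the variance trend (adjusted p = 0.0961).

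GMNN, the inhibitor of licensing, changed least. It was at 9.97 and 10.03 against 10.23 and 10.30, a difference of 0.26 with a 95% interval from 0.10 to 0.43 (adjusted p = 0.0356, limma). The genotypes were 0.20 apart at their nearest. GMNN did not pass without the filter (adjusted p = 0.087), without the variance trend (adjusted p = 0.127) or with voom on reads recovered from the values (adjusted p = 0.0615), and MCM5 did not without the filter (adjusted p = 0.051). Under median centring GMNN differed by 0.47.

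**Figure D3:**
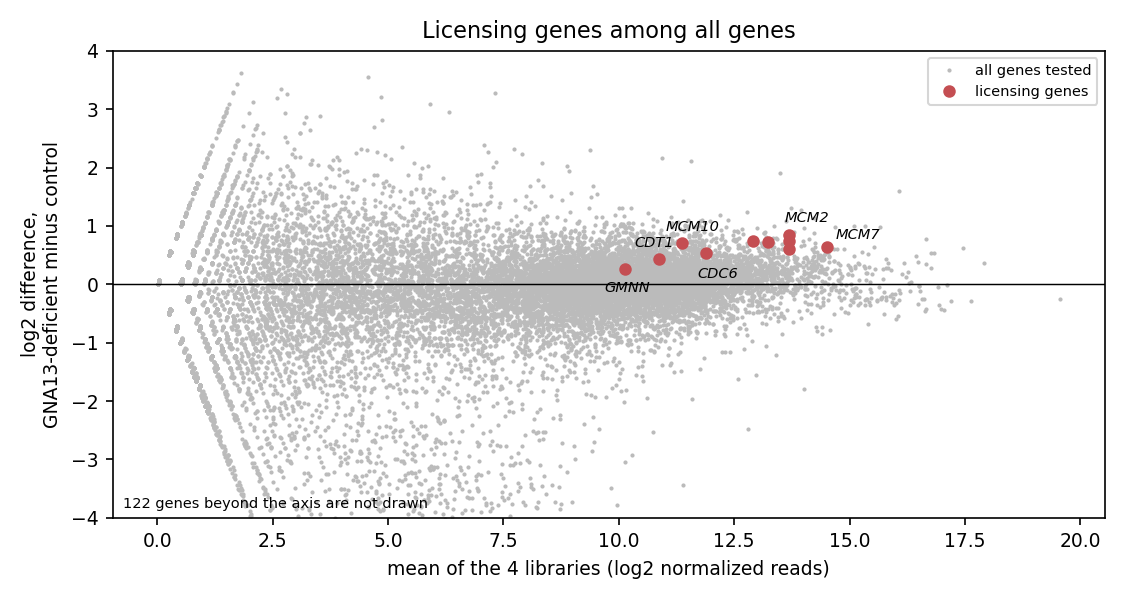
Log2 difference between genotypes (GNA13-deficient minus control, y axis) against the mean of the 4 libraries (log2 normalized reads, x axis), with all genes tested in grey and the 10 licensing genes in red; 122 genes lie beyond the axis. The licensing genes lie above 0 in the upper part of the cloud, between 0.26 and 0.85.

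The values can be set against GMNN, the gene that changed least, within each library, where a constant scaling of a library cancels. As deposited, such shifts follow directly from the differences above and are not separate support for the order of the rises. The mean log2 value of MCM2 to MCM7 exceeded that of GMNN by 3.28 and 3.25 under the control label and by 3.73 and 3.70 under the GNA13-deficient label, a shift of 0.45. CDC6 exceeded GMNN by 1.64 and 1.60 against 1.92 and 1.87, a shift of 0.28. In both ratios the genotypes did not overlap and the duplicates were within 0.048. CDT1 exceeded GMNN by 0.58 and 0.74 against 0.87 and 0.78, and here the shift of 0.17 came with genotypes only 0.037 apart. It was 0.085 without control replicate 1 and 0.25 without control replicate 2. With 2 libraries against 2, the exact permutation test gave a two-sided p of 0.333 for each of the 3 ratios, which is the smallest it allows, so none of these shifts could pass.

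Scaling between libraries changed the size of the rises and not their direction. The median difference of the 10 genes was 0.54 after quantile normalization and 0.88 after each library was centred on its median, and all 10 were called higher in both. Of all 16945 genes tested, 2741 were called higher after quantile normalization and 4311 after centring, against 2218 as deposited. Centring moved the median of all genes from -0.025 to 0.18, and 69.1% of the genes it called were higher, where the deposited scaling gave 44%. With any 1 library left out, all 10 genes remained higher by value. No gene in the whole table then passed in limma, which had 1 library in a genotype and took its spread from the other; at an unadjusted p under 0.05, 9 or 10 of the 10 did, among 5257 to 5600 genes.

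Levels were compared between genes as RPKM, computed from the recovered reads, the library totals and the length of the annotated MANE Select transcript. The annotation behind the counts is not given, so the order between genes rests on these lengths. On this scale, MCM7 stood highest, at 251 ± 8.4 (SD, n = 2) under the control label and 375 ± 5.7 (n = 2) under the GNA13-deficient label. MCM3 followed at 115 ± 3.5 and 167 ± 2.2, and MCM2 at 94.5 ± 0.92 and 165 ± 1.3. Under the control label MCM3 and MCM2 did not touch, while under the GNA13-deficient label they did. MCM4 was at 82.8 ± 6.8 and 133 ± 5.0, MCM6 at 66.1 ± 0.84 and 105 ± 0.21, and MCM5 at 56.9 ± 2.2 and 92.0 ± 2.4. The ring holds its subunits in equal number, but the transcripts of MCM7 and MCM5 differed from 4.04-fold to 4.62-fold within a library.

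The other licensing genes formed a lower tier. GMNN was at 26.7 ± 0.10 and 31.0 ± 0.46 and CDC6 at 22.7 ± 0.56 and 31.9 ± 0.28. CDT1 had RPKM values of 19.0 and 21.1 against 26.6 and 25.4, and MCM10 of 15.7 and 14.3 against 24.2 and 23.1. GMNN ranked above CDC6 under the control label and below it under the GNA13-deficient label. There CDC6 was at 32.1 and 31.7 against 30.6 and 31.3 for GMNN, a narrow separation that was not tested. This switch rests on the transcript lengths used, 4564 bases for CDC6 and 1263 for GMNN. Apart from GMNN with CDC6 and from MCM3 with MCM2, the neighbours in the order were apart in both genotypes. Reads behind these levels ran from 987 for GMNN to 27740 for MCM7 in a library.

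Within the sum over the 6 subunits, shares moved little. MCM2 took 13.9% and 14.5% of the sum under the control label and 16% and 15.8% under the GNA13-deficient label. MCM7 took 37.8% and 37.5% against 35.7% and 36.6%, and MCM3 17.3% and 17.1% against 16.3% and 16%. MCM6 took 9.86% and 10% against 10.1% and 10.1%. In MCM2 and MCM6 the share was higher and in MCM7 and MCM3 lower under the GNA13-deficient label, in each case without overlap. The shares of MCM4 and MCM5 overlapped between genotypes. Since the shares add to a fixed whole, they do not move independently, and no test was run on them.

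**Figure D4:**
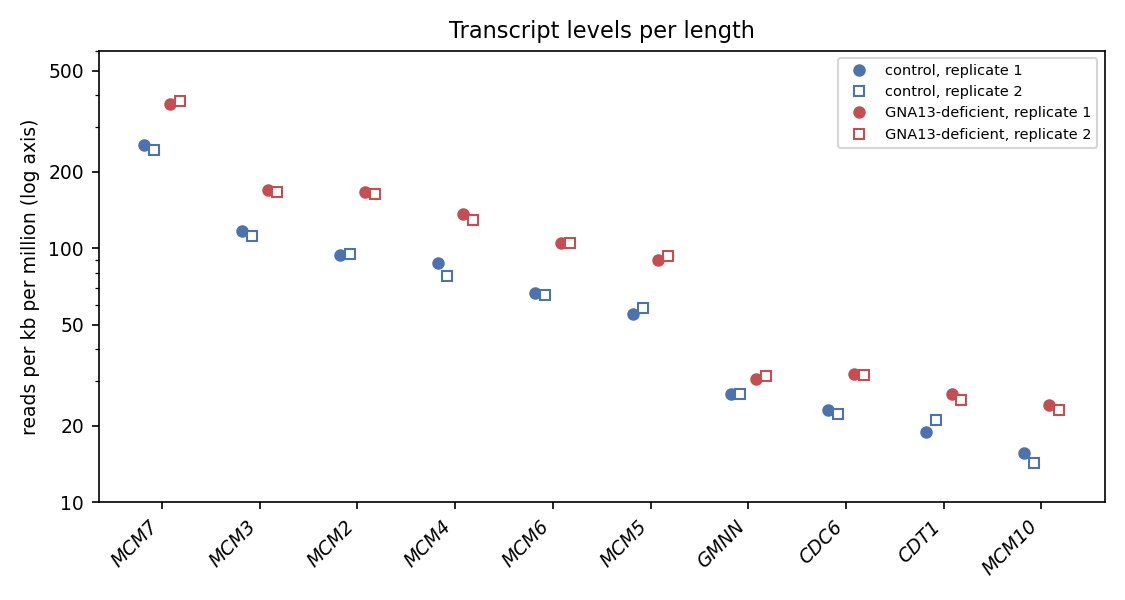
Transcript levels of the 10 licensing genes in each library, in RPKM on a log axis, in order of the control mean. The 6 helicase subunits lie from 55.4 to 379 and GMNN, CDC6, CDT1 and MCM10 from 14.3 to 32.1.

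The remaining genes of the pathway moved in part with the licensing genes. In lists of 37 other replication genes, 22 were called higher, 1 lower and 14 not called, with a median difference of 0.57. Over all genes tested, 13.1% were called higher and 16.6% lower. The counts of each list below may be read against these shares. Without the filter on low values 10 of the 37 were called higher, where 815 of 25066 genes were. Without the variance trend 14 were called higher, where 986 of 16945 genes were. Median centring added the same amount to the difference of every gene. Under it 31 of the 37 were called higher, where 4311 of 16945 genes were, so the calls under centring given below share 1 common shift.

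Subunits of the origin recognition complex diverged. ORC1, the subunit whose level varies most through the cell cycle, was at 10.95 and 10.92 against 11.93 and 11.96, a difference of 1.01 (standard error 0.050, adjusted p = 0.00108, limma). This was 2.01-fold and more than that of any of the 10 licensing genes in value. ORC6 rose by 0.57 and ORC3 by 0.41. Neither passed without the filter (adjusted p = 0.0857 and 0.0514, limma) or without the variance trend (adjusted p = 0.0586 and 0.0626), and ORC3 differed by 0.62 under median centring. ORC2, ORC4 and ORC5 differed by 0.061, 0.067 and 0.22 and were not called as deposited, although all 3 were called higher after median centring, at 0.27, 0.28 and 0.43. ORC5 also passed with a filter at the median level (adjusted p = 0.0476, limma) and with the replicate block (adjusted p = 0.0254, limma). LRWD1, a protein that stabilizes the complex on chromatin, differed by -0.13 and was not called, and under centring its difference was 0.075.

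Helicase activation genes were mostly higher, with 11 of 14 called. CDC45 and the 4 GINS genes, which join the ring to make the working helicase, all rose. GINS4 rose by 1.03, GINS2 by 0.95, GINS1 by 0.83, CDC45 by 0.74 and GINS3 by 0.57. Without the filter, GINS2, CDC45 and GINS3 did not pass (adjusted p = 0.0624, 0.0514 and 0.102, limma), nor did GINS3 without the variance trend (adjusted p = 0.0654). CDC7, the kinase that phosphorylates the ring, was at 10.37 and 10.22 against 11.14 and 11.21, a rise of 0.88 (adjusted p = 0.00246, limma). Its activators DBF4 and DBF4B differed by 0.15 and 0.30 and were not called as deposited, and both were called higher under centring, at 0.36 and 0.51, and DBF4B also after quantile normalization, at 0.49.

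TICRR was the exception of the pathway. This gene encodes Treslin, which brings CDC45 to the ring, and was at 9.95 and 10.04 against 9.49 and 9.38, so that it fell by 0.55 (standard error 0.075, adjusted p = 0.00754, limma). Under median centring it differed by -0.35 and was still called lower (adjusted p = 0.0262). MTBP, the binding partner of Treslin, went the other way, at 8.34 and 7.95 against 9.09 and 8.89, a rise of 0.84 (adjusted p = 0.020, limma). Both genes had a gap between genotypes, of 0.46 for TICRR and 0.55 for MTBP, and neither passed without the filter on low values (adjusted p = 0.0549 and 0.142), nor MTBP without the variance trend (adjusted p = 0.0748). The other activation factors DONSON, RECQL4 and WDHD1 rose by 0.83, 0.58 and 0.56. RECQL4 and WDHD1 did not pass without the filter (adjusted p = 0.0565 and 0.0625, limma), nor WDHD1 without the variance trend (adjusted p = 0.0502). TOPBP1, the scaffold that Treslin binds, rose by 0.39 (adjusted p = 0.0442, limma) but the call did not hold under 5 alternatives. These were no filter (adjusted p = 0.225), no variance trend (adjusted p = 0.147), voom (adjusted p = 0.0695), quantile normalization (adjusted p = 0.0609) and a pseudocount of 10 (adjusted p = 0.0585), and under median centring TOPBP1 differed by 0.60.

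Among genes that control or dismantle licensing, 6 of 12 were called higher and the other 6 were not called. DTL, the receptor by which the CUL4 ligase recognizes CDT1 for destruction in S phase, was at 11.76 and 11.72 against 12.70 and 12.65, a rise of 0.93 (adjusted p = 0.00126, limma). The ligase that DTL serves was not called as deposited, with differences of -0.030 for DDB1, 0.13 for CUL4A and -0.13 for CUL4B, though CUL4A was called under centring at 0.33 and the other two turned to 0.18 and 0.076. SKP2, which marks CDT1 for destruction by a separate route, rose by 0.72. CCNA2, a cyclin of S phase and G2, rose by 1.08, its kinase CDK2 by 0.74 and CCNE2 by 0.62, the last of which did not pass without the filter (adjusted p = 0.0516, limma), while CCNE1 differed by 0.19 and, of the alternatives run, was called only under centring, at 0.40. MCMBP, a chaperone of newly made MCM subunits, rose by 0.75 (adjusted p = 0.00182, limma). KAT7, a histone acetyltransferase that acts at origins, and FZR1, which marks geminin for destruction, differed by 0.15 and 0.10 and were likewise called only under centring, at 0.36 and 0.31.

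Relatives of the MCM genes that are not part of the replicative ring varied. MCM8, which acts with MCM9 in recombination, was at 10.63 and 10.36 against 11.15 and 11.02 and rose by 0.59 (adjusted p = 0.0176, limma), a call that was lost without the filter (adjusted p = 0.139) and without the variance trend (adjusted p = 0.0821). MCM9 had only 69 to 112 reads per library and its difference of 0.49 was not called as deposited, but was after quantile normalization, at 0.88. MCMDC2 had 7 and 15 reads against 30 and 35, and its difference of 1.73, with a 95% interval from 0.52 to 2.94, rested on these few reads (adjusted p = 0.0491, limma). It did not pass without the filter (adjusted p = 0.233) or without the variance trend (adjusted p = 0.0925), and was 1.10 with a pseudocount of 10. MCM3AP, named for its binding of MCM3, was at 12.55 and 12.56 against 12.63 and 12.47 and did not separate the genotypes.

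**Figure D5:**
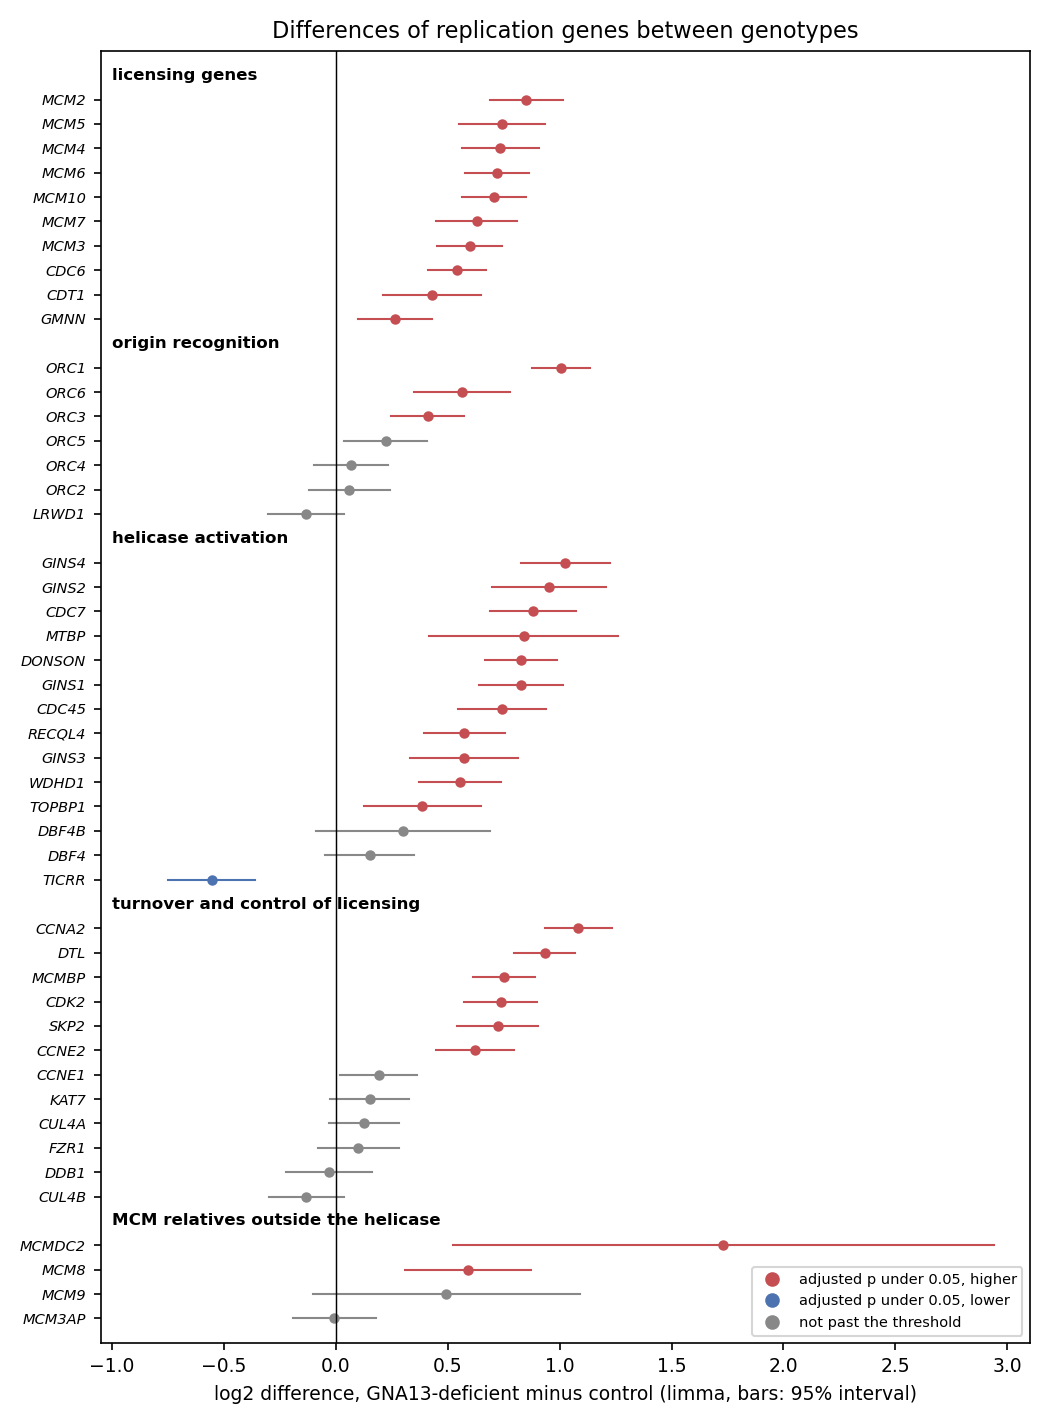
Log2 differences between genotypes (GNA13-deficient minus control, x axis) from limma for the 10 licensing genes and 37 other replication genes, with 95% intervals as bars, grouped by role. All 10 licensing genes lie above 0, and TICRR at -0.55 is the one gene called lower.

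Other transcripts of the cell cycle were higher in the same libraries. Of 15 S phase genes outside these lists, 14 were called higher, with a median of 0.60, and of 18 G2/M genes 16 were called higher and 1 lower, with a median of 0.73. The shares called over all genes tested were 13.1% higher and 16.6% lower. RRM2 and TYMS, which supply deoxynucleotides, led the S phase list at 1.09 and 1.00, and TOP2A and AURKB, which act on chromosomes in mitosis, the G2/M list at 1.27 and 1.11. CCNB2 fell by 0.44. In these bulk libraries, a larger share of cells in S phase and G2 and more licensing transcript per cell cannot be told apart, and the part of either in the rise of the licensing genes was not tested.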

How the data were processed

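RNA sequencing of NUDUL1 cells given 10 nM U46619 for 24 h was used, with 2 libraries per genotype. The authors made stranded poly(A) libraries and aligned to hg19 with STAR. They deposited normalized reads per gene on a log2 scale, beside a linear row of library totals that gave the depth. HTSeq is named in the submitters' processing notes, while the annotation, normalization and counting strand are not given in the sources used here. Linear values stepped in whole reads (100% of values above 0 and up to 400 reads, within 0.0006 on the log2 scale plus 0.002 reads), which were recovered for read counts, RPKM and voom. In control replicate 2, where 1 read would be at -0.023, 0 genes were at 1 read and 9309 were listed at 0, so that 1 read and none cannot be told apart there.

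Genes above 0 in at least 2 libraries (16945 of 25066) were fitted with limma 3.58.1 in R 4.3.3, with a mean-variance trend and genotype as the only term. Adjusted p values are Benjamini-Hochberg over the genes tested, two-sided, called under 0.05. The fit was also run on simulated reads with a set spread and planted changes. This checked the working of the fit and does not bear on the calls in these data. Older symbols (ORC1L, C15orf42 for TICRR) were matched by Entrez ID to RefSeq. Lengths and promoter windows are from GENCODE v44lift37 and GRCh37, the assembly of hg19.

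The licensing genes and all lists were chosen with earlier results of these data known. By rule, GNA13, the licensing genes, the 37 other replication genes and the 2 largest changes of the S phase and G2/M lists were named. CCNB2 and the cell type markers with values were named after their values were seen. The alternatives were filters (none, or the median level), pseudocounts of 1 and 10, quantile and median scaling, a replicate block, no trend, a robust prior, voom and each library left out.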

Additional observations from a re-analysis of the deposited data

How the results depend on the processing

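Among alternatives that kept all libraries, the 10 licensing genes were higher in each, and from 7 (no filter) to 10 were called. Their median difference, 0.67, moved to 0.54 under quantile normalization, 0.88 under median centring and 0.62 under voom. Under quantile normalization the shift of CDC6 relative to GMNN was 0.20 and that of MCM2 to MCM7 was 0.29. Genes called in the whole table numbered 1999 without the filter and 2718 without the variance trend, against 5037. Of the 37 other replication genes, 10 were called higher and 0 lower without the filter (6280 genes of the whole table had an unadjusted p under 0.05 there), and 14 higher without the trend. The causes were not tested. With each library left out in turn, limma had 1 residual degree of freedom and called 0 licensing genes, 0 other replication genes in either direction and 0 genes in all (lowest and highest), with 5257 to 5600 genes at an unadjusted p under 0.05. Directions turned only for genes that were not called: under median centring LRWD1 was 0.075, DDB1 0.18, CUL4B 0.076 and MCM3AP 0.20. With a library left out, DDB1 ranged from -0.074 to 0.015 (without control replicate 2) and MCM3AP from -0.087 to 0.074 (without GNA13-deficient replicate 2).

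The genotypes share replicate numbers, although nothing in the sources says that a number joins a pair of cultures. Deviations from the genotype mean correlated between equal numbers at 0.453 over the 8473 genes at or above the median level of those tested. Over the 10 licensing genes the correlation was 0.303. This is a hint from the data and not from the design. A replicate block left all 10 licensing genes called, with 6616 genes in all.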
